A study of Micromonas commoda with 15 samples.

Results

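In cultures of the marine green picoalga Micromonas commoda, 146 of 10300 gene models stood at least 2-fold lower in zinc than in iron, with metal oxide particles and with dissolved salts alike. These models were chosen by measured values: mean CPM (read counts relative to library size, scaled by edgeR's TMM factors, not divided by gene length) of each group, as log2 ratios to the control mean after adding 0.5 CPM. A member had a control mean from 1 to under 1000 CPM and an average over the 5 groups of at least 5 CPM. Its log2 ratio was lower by at least 1 with ZnO than with Fe2O3 particles, and by at least 1 with ZnSO4 than with FeCl3, and it was below 1 with ZnSO4. The level limits left 7657 models. Of these, 274 met the limit between the particles, 593 the limit between the salts, and 146 both. The cap on ZnSO4 removed none.

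All cultures were strain RCC299 in L1, a seawater medium that itself supplies trace iron and zinc, and each of the 5 groups had 3 libraries of poly(A)-selected RNA. Metals were added 24 h after the flasks were set up, and cells were collected 48 h later. Controls received no metal, and the exposed cultures received Fe2O3 nanoparticles (labelled 3e-05 M, 2.4 mg/L iron), ZnO nanoparticles (1e-05 M, 0.8 mg/L zinc), FeCl3 or ZnSO4, each salt at the metal concentration of its particle. Taken as amounts of metal, the labelled molar and mass values do not match each other, so the exact doses are not settled. Iron and zinc were dosed differently, so every comparison of the metals also compares doses. Nothing states that the 3 libraries of a group came from separate starter cultures, so the p-values measure the spread between these samples, which may be technical.

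Micromonas is a prasinophyte, an early branch of the green lineage, whose very small cells carry a single chloroplast and a single mitochondrion. Iron serves photosynthetic electron transport and respiration, in cytochromes and iron-sulfur proteins, and is often scarce in the sea. Zinc is a cofactor of carbonic anhydrases and of many DNA-binding proteins, and an excess of it can occupy the sites of other metals. The identifiers in the table are paired with no gene names: 0 of the 10300 matched the RefSeq table of assembly ASM9098v2. No role, pathway or sequence can therefore be attached to a member, and only 4 identifiers are printed, 2 of members that rose most with iron and 2 of members that fell most with zinc.

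Within the groups, single libraries stood apart over these members. FeCl3 replicate 1 was the highest of its group in 143 of 146 members, with a median deviation from the group mean of 0.43 on the log2 scale. FeCl3 replicates 2 and 3 deviated by -0.14 and -0.28. Fe2O3 particles replicate 3 was the highest of its group in 118 members (median deviation 0.29), and control replicate 2 in 117 (0.26). Over all tested models the median deviations of these libraries lay between -0.01 and 0.02. The members' median SD among FeCl3 libraries was 0.39 on the log2 scale, beside 0.20 for all models, while in controls it was 0.28 beside 0.27. FeCl3 replicate 1 was also the deepest of the 15 libraries, at 48969454 counts, while Fe2O3 particles replicate 3 had 46840498 and control replicate 2 37824238. The part of depth in these deviations was not tested.

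**Figure D1:**
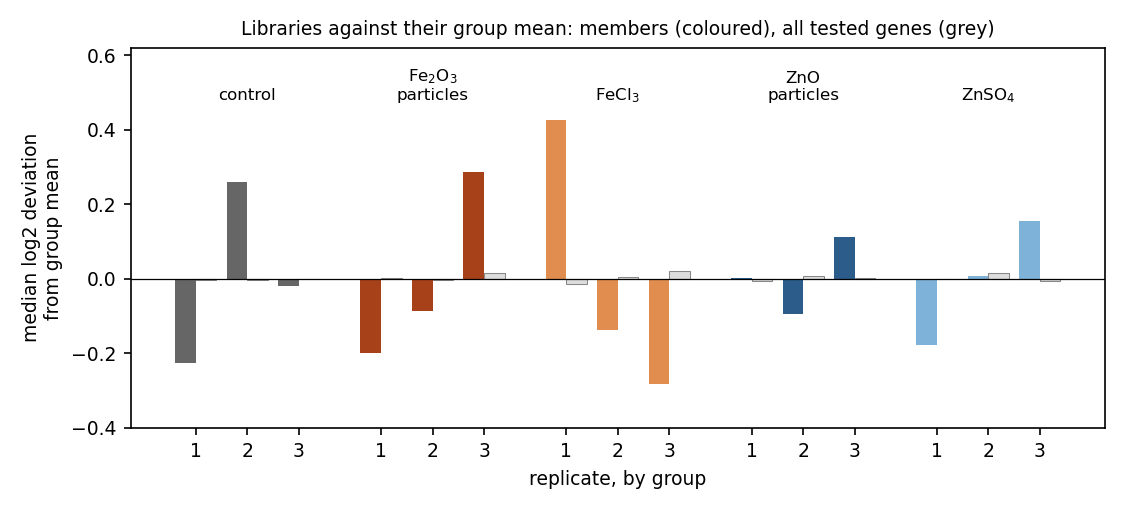
Median deviation of each library from its group mean on the log2 CPM scale, over the 146 members (coloured bars) and over all tested models (grey bars), for replicates 1 to 3 of the 5 groups. FeCl3 replicate 1 reaches 0.43 for the members, while no grey bar leaves the range from -0.02 to 0.03.

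Summed over the members, the level was 15997 ± 999.96 CPM in controls (SD, n = 3), 39133 ± 3153 CPM with Fe2O3 particles and 24334 ± 5417 CPM with FeCl3. It was 15902 ± 1251 CPM with ZnO particles and 8760 ± 511 CPM with ZnSO4. The sum with Fe2O3 particles ran from 35980 to 42287 CPM and with FeCl3 from 20479 to 30528 CPM. With ZnO particles it ran from 14675 to 17176 CPM, across the control range of 14948 to 16940 CPM, and with ZnSO4 from 8183 to 9155 CPM. On this TMM scale both iron groups lay wholly above the controls, ZnO particles overlapped them and ZnSO4 lay wholly below. As a share of each library's reads, the members took 1.05% to 1.58% in controls and 0.89% to 1.22% with ZnSO4, which overlapped. The share was 1.57% to 1.84% with ZnO particles, 3.35% to 4.47% with Fe2O3 particles and 1.95% to 3.26% with FeCl3. The rule used these libraries, so the sums are a description.

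Against the controls, more members were higher in iron than were lower in zinc. In edgeR's quasi-likelihood test over 10012 models (adjusted p under 0.05), 127 members were higher with Fe2O3 particles, beside 35.6% of all models, and 3 were lower, beside 35.7%. With FeCl3, 117 were higher, beside 20.5% of all models, and 1 was lower, beside 23.4%. With ZnO particles 34 were higher, beside 30.1%, and 34 lower, beside 33.7%. With ZnSO4 0 were higher, beside 22.2%, and 90 were lower, beside 35.6%. These comparisons use the libraries that chose the members, the rule favours high iron and low zinc values and caps ZnSO4, and all 4 share the controls. The counts therefore describe where the gap lies and support nothing further.

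In size, the members' median log2 fold change was 1.37 with Fe2O3 particles (a 2.59-fold level), with an interquartile range of 0.91 to 1.87. It was 0.85 with FeCl3 (1.797-fold, interquartile range 0.59 to 1.17) and -0.06 with ZnO particles (interquartile range -0.42 to 0.62). With ZnSO4 it was -0.60 (interquartile range -0.94 to -0.41). The median over all tested models was 0.02, 0.01, -0.04 and -0.23 in the same order, so that ZnSO4 members stood 0.38 below the median model and ZnO members 0.01 below it. The highest group mean belonged to Fe2O3 particles for 115 members and to FeCl3 for 30. For 110 members the lowest group mean was that of ZnSO4, for 24 that of ZnO particles and for 12 that of the controls. The rule puts each zinc group below its iron partner, so no zinc group could be highest and no iron group lowest.

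**Figure D2:**
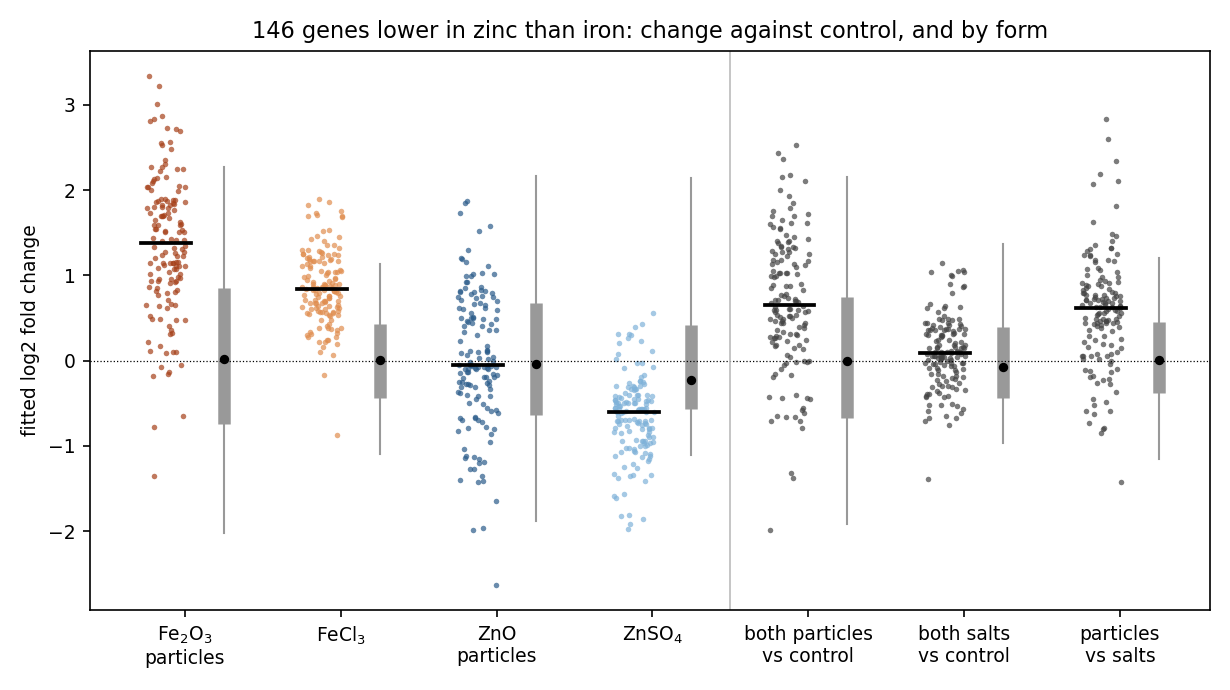
Fitted log2 fold changes of the 146 members (points, black line at the median) for each exposure against control and, right of the grey line, for both particles and both salts against control and for particles against salts. Grey bars beside them show all 10012 tested models (thin line 5th to 95th percentile, thick bar interquartile range, dot median). The members' medians stand at 1.37 and 0.85 in iron and at -0.06 and -0.60 in zinc.

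The zinc values relative to control depend on the scaling and on the filter. With total counts in place of TMM factors the median of all models against control moved to 0.34 with ZnO particles and to 0.31 with ZnSO4. The members then had 50 higher and 16 lower calls with ZnO particles, beside 41.7% and 19.7% of all models. With ZnSO4 they had 5 higher and 20 lower calls, beside 37% and 7.33%. Relative to the median model their medians hardly moved, at -0.03 with ZnO particles and -0.39 with ZnSO4. The rise in iron kept its direction, with member medians of 1.59 and 1.11 and all-model medians of 0.25 and 0.29. Keeping only models that average 5 CPM or more left 46 members lower with ZnSO4, beside 20.4% of the models kept, with a member median of -0.31 and an all-model median of -0.02. Leaving out single libraries gave 42 to 98 members lower with ZnSO4, in place of 90. The number was 98 without control replicate 1, beside 31.7% of all models, and 91 without FeCl3 replicate 3, beside 35.5%. Removing any zinc library lowered it, and the share of all models with it. Without ZnSO4 replicates 1, 2 and 3 the number was 42, 47 and 59, beside 17.3%, 16.1% and 16.7% of all models. Without ZnO particles replicates 1, 2 and 3 it was 58, 59 and 57, beside 19.3%, 19.1% and 19.2%. Without FeCl3 replicate 1 it was 68, beside 21.8%. There the median of all models with ZnSO4 was -0.002 in place of -0.23 and that of the members -0.38.

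The differences that the rule used are given as a description. Between the particles the median gap on the rule's log2 scale was -1.24 and the widest -2.74. Between the salts these values were -1.47 and -2.68, and for 101 members the gap between the salts was the wider. The members nearest the limit had gaps of -1.0074 between the particles and -1.0004 between the salts, while models that met every other condition were left out at -0.9969 and -0.9908. In all 146 members the 3 ZnO libraries lay below the 3 Fe2O3 libraries, beside 21.3% of all tested models, and the 3 ZnSO4 libraries below the 3 FeCl3 libraries, beside 36%. All 146 were called lower between the particles, beside 11.7%, and between the salts, beside 30.4%. The opposite set was small: with the gaps mirrored and the same level limits, 3 models were at least 2-fold higher in zinc in both forms. Scaling by total counts alone left 70 of the 146 and raised the 3 to 22. Leaving out single libraries gave between 3 and 11 such models, with 11 without ZnO particles replicate 1, 10 without ZnSO4 replicate 2 or 3, 8 without Fe2O3 particles replicate 1, 7 without FeCl3 replicate 1 and 6 without Fe2O3 particles replicate 2. There were 5 without the third replicate of Fe2O3 particles, of FeCl3 or of ZnO particles.

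The averages over a form are not fixed by the difference between its metals, but they come from the same libraries. Where 1 metal spreads more than the other, choosing by the difference can tilt the average, and how far it did was not tested. Averaged, both particles were higher than control in 95 members (65.1%), beside 34.9% of all models, and lower in 16 (10.96%), beside 36.7%. The members' median log2 fold change was 0.66, and that of all models 0.00. Scaled by total counts alone, 106 members were higher and 5 lower, beside 44.2% and 25.6% of all models. With any single library left out the counts were 79 to 106 higher and 11 to 17 lower. The shares of all models then ran from 31.5% to 37.4% higher and from 33.2% to 36.5% lower.

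Averaged in the same way, both salts did not set most members apart from control, but this average joins opposite changes. FeCl3 alone had 117 members higher and 1 lower, beside 20.5% and 23.4% of all models. ZnSO4 alone had 0 higher and 90 lower, beside 22.2% and 35.6%, and the rule itself sets the salts apart. The average of the salts was higher in 19 members (13.01%), beside 20.3% of all models, and lower in 16 (10.96%), beside 30.5%. In it, 111 members did not pass the test. The rule's cap on ZnSO4 enters this average. The median log2 fold change was 0.09, beside -0.08 over all models. The split is not stable: total counts only gave 46 higher and 1 lower, beside 36.8% and 9.40% of all models, and leaving out single libraries gave between 9 and 37 higher. The higher members were 9 and 10 without control replicates 1 and 3, beside 16% and 18.7% of all models, and 33 without control replicate 2, beside 21.2%. They were 34 without Fe2O3 particles replicate 3, beside 26.8%, and 37 without ZnSO4 replicate 1, beside 24.9%. Leaving out any 1 ZnO library gave 30 to 31, beside 24.1% to 24.2%. The lower members were 8 or 9 without Fe2O3 particles replicate 3 or any 1 of the 6 zinc libraries, beside 19.3% to 23.6% of all models.

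Most members stood higher with particles than with salts, a contrast in which neither difference of the rule enters directly. It uses the libraries that chose the members, so groups that spread unequally can let the choice tilt it. Over all models the median SD among replicates, on the log2 scale, was 0.24 with Fe2O3 particles and 0.11 with ZnO particles. With FeCl3 and ZnSO4 it was 0.20 and 0.17. How far this moved the counts was not tested. Averaged over both metals, particles were above salts in 99 members (67.8%), beside 30.7% of all models, and below in 12 (8.22%), beside 28.6%. The median log2 fold change was 0.62 (a 1.54-fold level), against 0.01 over all models. With total counts only, 77 were above and 11 below, beside 23.3% and 33.9% of all models, and the median of all models was -0.09. With single libraries left out the count above ran from 82 to 105, beside 25.2% to 31.7% of all models. The count below then ran from 11 to 18, beside 26.1% to 32.9%. Within iron, Fe2O3 particles were above FeCl3 in 64 members, beside 27.5%, and below in 10, beside 27.7%. Within zinc, ZnO particles were above ZnSO4 in 84 members, beside 22.6%, and below in 6, beside 20.4%. A fit of the 6 zinc libraries alone, with the replicate number as a block, gave 109 above and 13 below, beside 32.1% and 30.4%. The difference between these particle effects is the difference of the rule's gaps. It had a median of 0.14 and ran from -0.89 to 1.21, with a median standard error (SE) of 0.30.

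Sorted by their calls against control, the members fell into a few recurrent patterns, again as a description. The commonest, with 36 members, was higher in both iron exposures, not called with ZnO particles and lower with ZnSO4, a pattern of 1.33% of all tested models. Its median log2 fold changes were 1.25 and 0.79 with Fe2O3 particles and FeCl3 and -0.07 and -0.73 with ZnO particles and ZnSO4. Next came 29 members higher in both iron exposures and called in neither zinc exposure (2.10% of all models), with medians of 1.71, 1.17, 0.41 and -0.40 in the same order. A further 21 were higher with ZnO particles as well (3.65% of all models), at 2.25, 1.36, 0.92 and -0.07. In 12 members iron was higher and zinc lower in both forms (0.19% of all models), at 0.72, 0.61, -0.67 and -0.72. In all, 107 members were higher in both iron groups, beside 15.9% of all tested models, and 9 in neither, beside 59.9%. Lower in both zinc groups were 30 members (20.5%), beside 24.2% of all models. The rule used these libraries, and nothing is read from the shares.

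**Figure D3:**
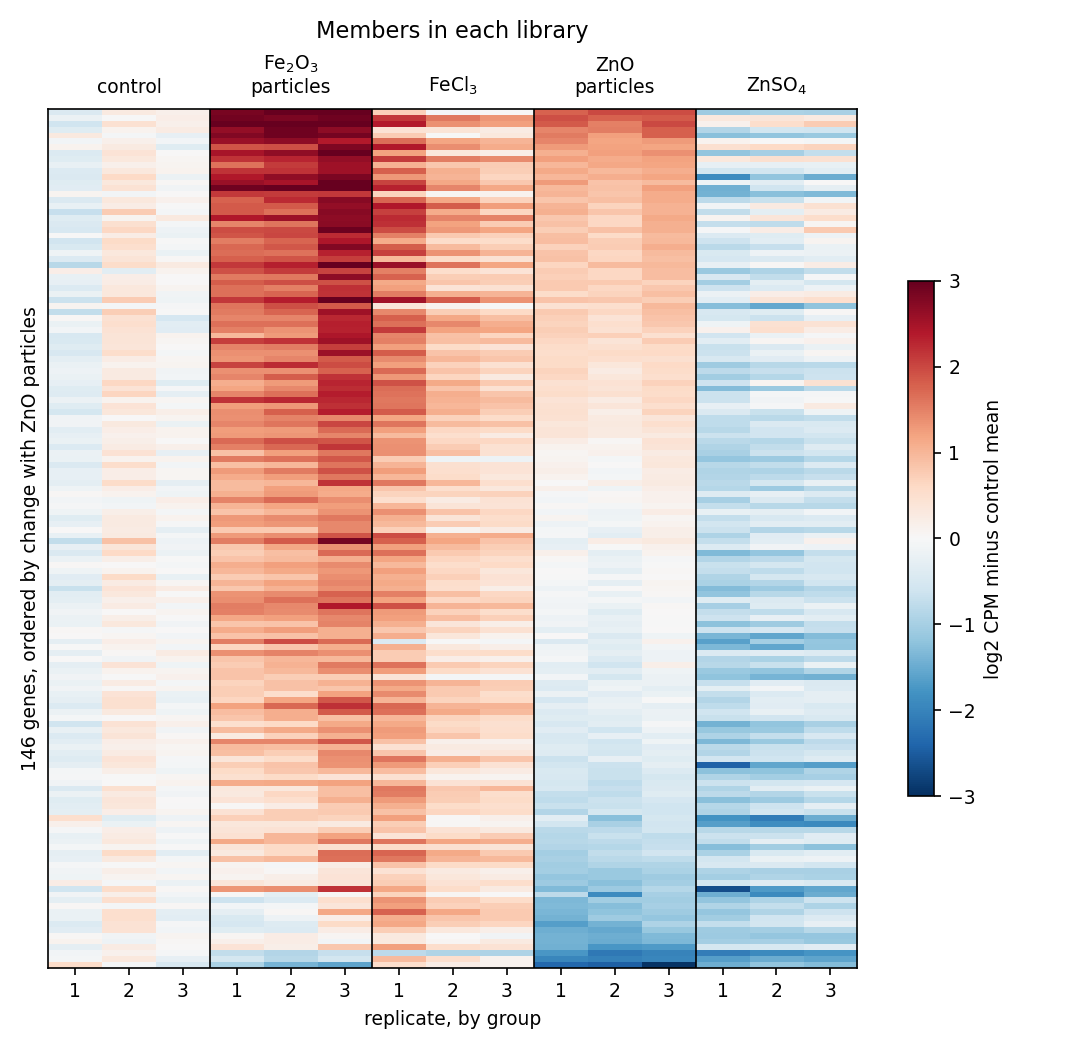
Log2 CPM of each member minus its control mean, in all 15 libraries (columns, replicates 1 to 3 by group), with the 146 members in rows ordered by their change with ZnO particles. Red marks values above and blue below the control mean. FeCl3 replicate 1 and Fe2O3 particles replicate 3 are the reddest columns of their groups, and the ZnO columns pass from red to blue while most ZnSO4 values are blue.

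The choice of members leaned on the libraries that stood apart. Without FeCl3 replicate 1 the rule found 67 models, all among the 146, and without Fe2O3 particles replicate 3 it found 101, of which 97 were among them. Leaving out ZnO particles replicate 1 gave 101, and ZnSO4 replicate 2 gave 103. In the other direction, 177 were found without Fe2O3 particles replicate 1. A core of 50 members was found whichever library was left out. Without FeCl3 replicate 1 and Fe2O3 particles replicate 3 together 49 were found, of which 47 belong to the core. The 50 showed medians against control of 1.51 with Fe2O3 particles, 0.90 with FeCl3, -0.10 with ZnO particles and -0.79 with ZnSO4. The core was found by the same rule in the same libraries, which favours members with wide gaps, so nothing is read from these sizes. For the 146 members as chosen, the FeCl3 change was also smaller without FeCl3 replicate 1, with a median log2 fold change of 0.64 in place of 0.85. Then 79 members were higher than control in place of 117, beside 14.5% of all models in place of 20.5%. With Fe2O3 particles replicate 3 left out as well, 100 were higher with FeCl3, beside 16.9%, at the same median of 0.64.

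The member that rose most over both iron exposures was wlab.2277.1. It stood at 12.3, 25.3 and 20.6 CPM in controls, at 158, 173 and 256 CPM with Fe2O3 particles and at 96.8, 48.4 and 43.7 CPM with FeCl3. With ZnO particles it stood at 66.2, 53.3 and 73.2 CPM, and with ZnSO4 at 20.4, 26.9 and 31.4 CPM. All libraries of Fe2O3 particles, FeCl3 and ZnO particles lay above every control, and ZnSO4 overlapped the controls. The log2 fold changes against control were 3.34 with Fe2O3 particles (SE 0.332, a 10.1-fold rise, edgeR quasi-likelihood adjusted p = 3.22e-07) and 1.70 with FeCl3 (SE 0.313, adjusted p = 0.000629). They were 1.73 with ZnO particles (SE 0.314) and 0.43 with ZnSO4 (SE 0.308, adjusted p = 0.239), the last being called without FeCl3 replicate 1, at 0.66. The ZnO cultures held this transcript in the range of the FeCl3 cultures (64.2 ± 10.1 and 63.0 ± 29.4 CPM, SD, n = 3), and Fe2O3 particles raised it further. It is outside the core of 50, since leaving out at least 1 of the libraries removed it.

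The other member printed for its rise, wlab.239541.1, was scarce in controls, at 4.17, 7.10 and 4.83 CPM. Fe2O3 particles brought it to 39.7, 44.6 and 65.2 CPM, and FeCl3 to 26.2, 14.6 and 11.7 CPM. It was at 10.3, 9.66 and 12.2 CPM with ZnO particles and at 1.89, 3.45 and 4.30 CPM with ZnSO4. Every library of the first 3 exposures was above every control, while the ZnSO4 values reached from below the controls into their range. Its log2 fold changes were 3.22 with Fe2O3 particles (SE 0.338, edgeR quasi-likelihood adjusted p = 5.87e-07), 1.71 with FeCl3 (SE 0.325) and 0.999 with ZnO particles (SE 0.323, adjusted p = 0.0137). The value of -0.74 with ZnSO4 did not pass (SE 0.332, adjusted p = 0.0686). Without control replicate 1 the ZnO value, at 0.84, was no longer called and the ZnSO4 value, at -0.90, was. This member belongs to the core of 50, and its gaps of -2.17 and -2.28 between the metals were among the widest.

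Of the members printed for a fall, wlab.247881.1 followed the form as much as the metal. Controls spread widely, at 225, 145 and 109 CPM. The values were 78.7, 57.6 and 50.5 CPM with Fe2O3 particles, and 221, 178 and 164 CPM with FeCl3. With ZnO particles they were 29.8, 27.6 and 19.8 CPM, and with ZnSO4 54.8, 67.3 and 61.6 CPM. FeCl3 overlapped the controls, Fe2O3 particles overlapped ZnSO4, and ZnO particles lay below all others. Against control its log2 fold changes were -2.63 with ZnO particles (SE 0.250, edgeR quasi-likelihood adjusted p = 2.5e-07), -1.38 with ZnSO4 (SE 0.239), -1.35 with Fe2O3 particles (SE 0.239) and 0.24 with FeCl3 (SE 0.235, adjusted p = 0.424). The particles-minus-salts value was -1.42 (SE 0.170, adjusted p = 3.92e-06), the opposite of most members. It belongs to the core of 50.

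The last, wlab.235729.1, fell in all 4 exposures. It was at 141, 160 and 143 CPM in controls, 88.3, 79.8 and 90.5 CPM with Fe2O3 particles, and 85.5, 79.0 and 77.6 CPM with FeCl3. ZnO particles left 43.8, 33.1 and 36.5 CPM, and ZnSO4 35.1, 39.5 and 43.6 CPM. The values form 3 separate steps, controls above iron and iron above zinc, and within a step the particle and the salt overlap. Log2 fold changes were -0.78 with Fe2O3 particles (SE 0.124), -0.87 with FeCl3 (SE 0.124), -1.97 with ZnO particles (SE 0.128) and -1.91 with ZnSO4 (SE 0.128, edgeR quasi-likelihood adjusted p = 1.34e-08). Particles and salts did not differ detectably, at 0.02 (SE 0.087). This member, too, is outside the core of 50. It was the only member lower than control in all 4 exposures, a pattern held by 1379 of all tested models.

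**Figure D4:**
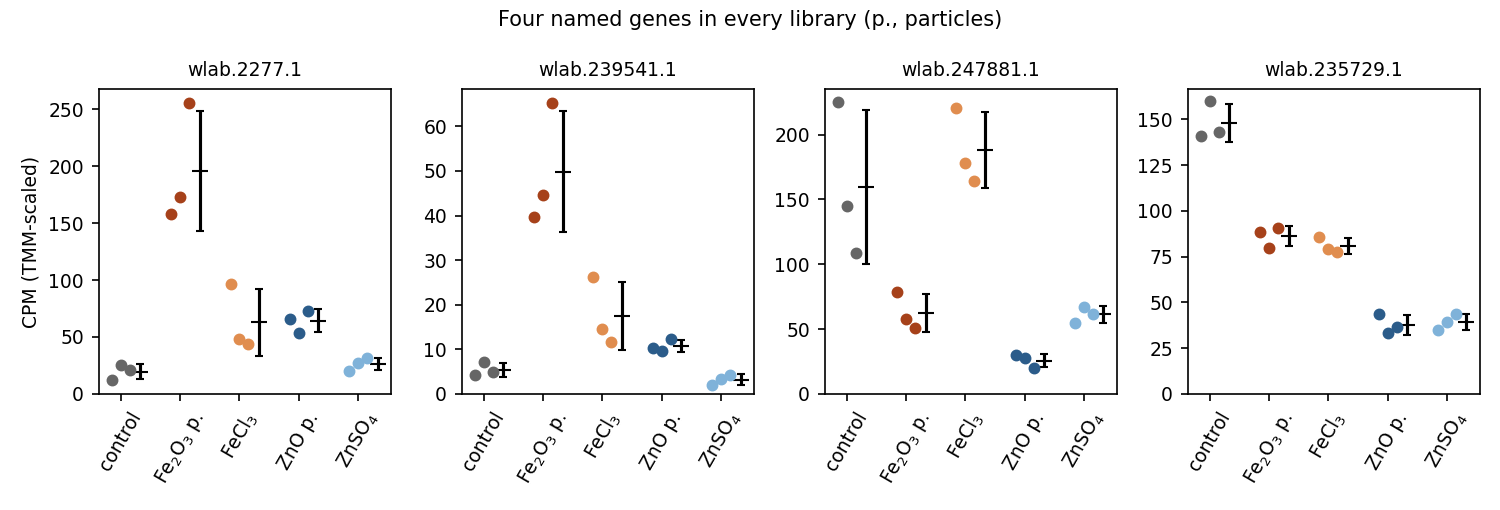
TMM-scaled CPM of the 4 printed members in every library (points, replicates 1 to 3 from left to right) with the group mean ± SD (black), on separate linear axes. The first pair is highest with Fe2O3 particles, wlab.247881.1 is lower with either particle than with its salt, and wlab.235729.1 steps down from controls to iron to zinc.

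Several members without a printed identifier, picked after their values were seen, show the range of shapes. The widest gap between the particles belonged to a member at 65.5, 142 and 101 CPM in controls. It reached 245, 258 and 436 CPM with Fe2O3 particles and 217, 143 and 118 CPM with FeCl3, and dropped to 39.0, 46.3 and 54.3 CPM with ZnO particles and 15.5, 30.1 and 33.1 CPM with ZnSO4. It moved both ways, with log2 fold changes of 1.61 with Fe2O3 particles (SE 0.331) and -1.97 with ZnSO4 (SE 0.337). FeCl3, at 0.63, did not pass (SE 0.325, edgeR quasi-likelihood adjusted p = 0.125).

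A more abundant member kept its control level in iron and was lower in zinc. Its controls were at 715, 644 and 729 CPM, beside 721, 809 and 720 CPM with Fe2O3 particles and 849, 696 and 647 CPM with FeCl3. With ZnO particles it was at 258, 250 and 276 CPM and with ZnSO4 at 326, 313 and 313 CPM. The log2 fold changes in zinc were -1.41 (SE 0.129) and -1.13 (SE 0.128), and those in iron 0.11 and 0.07 (SE 0.126 each). It is among 6 members that were called in neither iron exposure and lower in both zinc exposures, beside 1.89% of all tested models, and their median control level was 327 CPM.

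Another 6 members rose with both particles, were not called with FeCl3 and fell with ZnSO4, beside 1.04% of all tested models. The one with the largest particle effect had 105, 170 and 157 CPM in controls, 1004, 1132 and 1318 CPM with Fe2O3 particles and 477, 552 and 548 CPM with ZnO particles. It stood at 230, 138 and 142 CPM with FeCl3 and at 67.7, 72.2 and 72.1 CPM with ZnSO4. Particles and salts did not overlap in either metal, and particles were higher by 2.83 on the log2 scale (SE 0.155, edgeR quasi-likelihood adjusted p = 2.08e-09). Over these 6 members the median log2 fold changes were 2.77 with Fe2O3 particles, 1.36 with ZnO particles, 0.32 with FeCl3 and -1.12 with ZnSO4.

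The forms of zinc parted in direction for some members. Against control, 12 were higher with ZnO particles and lower with ZnSO4, beside 172 (1.72%) of all tested models. A further 22 were higher with ZnO particles only (10.4% of all models) and 48 lower with ZnSO4 only (9.71%). Another 4 were lower with ZnO particles only (9.24%), 30 were lower with both (24.2%), and the other 30 were called in neither (22.5%). These classes depend on the scaling, since total counts only left 20 members lower with ZnSO4, beside 7.33% of all models.

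**Figure D5:**
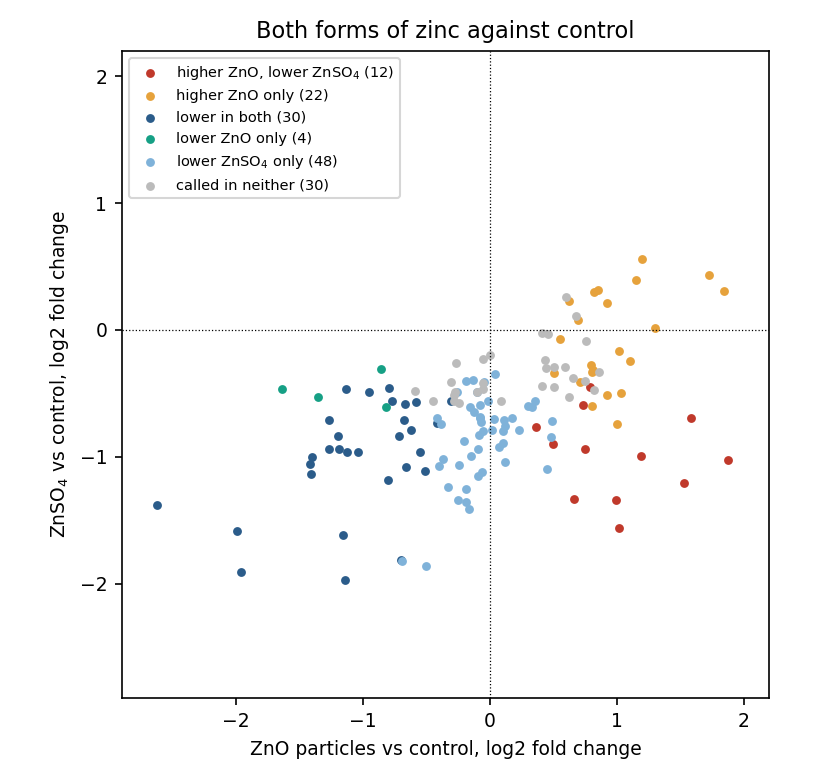
Fitted log2 fold changes against control with ZnO particles (horizontal) and ZnSO4 (vertical) for the 146 members, coloured by which passed an adjusted p of 0.05. The 12 red points lie right of and below 0, and 30 dark blue points are lower in both.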

How the data were processed

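The deposited table holds whole-number counts per gene model, 1 column per library, as the authors made them, with no normalization visible in the values. The submitters' processing notes name STAR, RSEM 1.3.0, Trim Galore 0.4.0 and CASAVA 2.17, while the table's name speaks of HTSeq, so the counting program is unsettled. For build and annotation nothing was given in the sources used here. Totals ran from 33473041 to 48969454 counts, and a member had at least 49 reads in every library. The members and tests were chosen with earlier results of these data known. TMM factors over all rows (0.704 to 1.34) served the choice of members.

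Tests used edgeR 4.0.16 in R 4.3.3: filterByExpr (minimum count 10) kept 10012 models and all 146 members, all 15 libraries entered 1 quasi-likelihood fit with group as the only term, and p-values were adjusted by Benjamini-Hochberg over all models tested. SE is the log2 fold change over the square root of F. Alternatives used DESeq2 1.42.0 and limma 3.58.1. The steps were tested on simulated data. The 4 identifiers were taken, among members called in both exposures of a metal, by the highest mean log2 fold change in iron and the lowest in zinc.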

Additional observations from a re-analysis of the deposited data

Results flagged for a closer look

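Opposite directions in the forms of zinc marked 12 members: against control each was higher with ZnO particles and lower with ZnSO4 in edgeR's quasi-likelihood test. The direct comparison of ZnO particles with ZnSO4 was also called in the 12, but picking them by opposite calls against shared controls fixes its sign, so it adds no support.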

How the results depend on the processing

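The number of members fell from 146 to 70 with total counts only, ran from 67 (without FeCl3 replicate 1) to 177 when single libraries were left out, and was 49 without FeCl3 replicate 1 and Fe2O3 particles replicate 3 together, a setting added after seeing the data. DESeq2 size factors gave 134, and offsets of 0.1 and 2 CPM gave 148 and 119. For both salts against control, members higher and lower were 46 and 1 with total counts only, beside 36.8% and 9.40% of all models. They were 39 and 5 among models averaging 5 CPM or more, beside 28.7% and 19.1%. At an adjusted p of 0.01 they were 9 and 10, beside 14.1% and 21.8%. Fitting only the groups compared gave 9 lower, beside 19.6%, and the paired removal of libraries gave 30 higher, beside 25.8%. Single libraries left out gave 9 to 37 higher, beside 16% to 26.8%, and 8 to 20 lower, beside 19.3% to 30.3%. For both particles against control the members lower were 5 with total counts only, beside 25.6% of all models. Among models averaging 5 CPM or more they were 6, beside 30.3%. Particles against salts stayed within 1.5 times of 99 and 12 under every alternative run. With the replicate number as a block, 95 members were higher in the average of both particles, beside 35.5% of all models. In the average of both salts 17 were higher, beside 20.9%. Deviations of same-numbered libraries correlated from -0.46 to 0.68, above 0.1 in 17 of 30 pairs. No comparison with control had all 3 numbers above 0.1, but Fe2O3 with ZnO particles (0.23 to 0.43), Fe2O3 particles with ZnSO4 (0.13 to 0.68) and ZnO particles with ZnSO4 (0.21 to 0.28) did. For ZnO particles against ZnSO4 the block, added after seeing the data, left 84 above and 6 below, beside 23.5% and 20.8% of all models. With only the zinc libraries it gave 109 and 13, beside 32.1% and 30.4%. The 4 printed members were recomputed with DESeq2 size factors, total counts only, DESeq2, the replicate block and each library left out. Of these 304 values, 301 kept their side of the threshold of 0.05, and no called value changed direction. The members were not recomputed with limma, other filters, an adjusted p of 0.01 or the paired removal. The causes were not tested.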

Other observations

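Members sat beside each other in the numbering of the models more often than models did in general: 12 of 146 members (8.22%) had a number directly before or after that of another member, as had 184 of all 10300 models (1.79%). These made 3 pairs and 2 runs of 3. In the first run the control means were 449, 39.3 and 69.1 CPM, and in the other 66.1, 144 and 9.69 CPM, with Fe2O3 particle means of 461, 1151 and 31.6 CPM. The files do not say what the numbers stand for, and whether such models overlap or share reads was not tested. None of the members carried a duplicate mark or had a marked partner, and 1 member stands under an identifier that the table lists more than once.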
